A study of Mus musculus with 4 samples.

Results

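The dual-specificity MAP kinase phosphatases (MKPs) were followed in NKT cells sorted from the small intestine lamina propria (SI-LP). The 9 genes, *Dusp1*, *Dusp2*, *Dusp4*, *Dusp5*, *Dusp6*, *Dusp7*, *Dusp8*, *Dusp10* and *Dusp16*, were chosen by symbol as feedback phosphatases of antigen receptor signalling, and all 9 were found among the 25239 genes of the deposited table. The rule uses no measured value, but the genes were chosen with earlier results of these data known.

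MKPs remove phosphate from both the threonine and the tyrosine of the activation loop of MAP kinases, which switches the kinase off. Many of their genes are themselves switched on by the pathway they shut down, so that in T cells an antigen receptor signal through Ras, ERK, JNK and p38 is followed by its own brake. The family falls into inducible phosphatases of the nucleus (*Dusp1*, *Dusp2*, *Dusp4*, *Dusp5*), cytosolic phosphatases directed at ERK (*Dusp6*, *Dusp7*) and phosphatases directed at JNK and p38 (*Dusp8*, *Dusp10*, *Dusp16*).

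The study asked how NKT cells, T cells that recognise lipids presented by CD1d, differ in the intestine, and RNA-seq of the SI-LP population is used here. All 4 libraries are of 1 group, iNKT cells of the SI-LP of C57BL/6Jax (WT) mice, which per the methods had received an anti-ARTC2 nanobody shortly before harvest. The cells were sorted as viable TCRβ+ CD1d-tet-PBS-57+ cells lacking B220, CD11b, CD11c and CD8. Per the methods for lamina propria cells, the tissue was first digested with enzymes and lymphocytes were enriched on a Percoll gradient. The part of this handling in the transcript levels below was not tested. The titles of replicates 3 and 4 carry the word First and those of replicates 1 and 2 the word Second. The titles do not explain these words, which are read here as a first and a second experiment. Library names also differ between these pairs in prefix and lane. The titles also carry the letters WT with a number, which differs in each library and is used here as the replicate number. The labels do not say whether these numbers stand for separate mice, so the spread between libraries may be partly technical.

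Libraries held 3882803 to 8732858 counts on genes, and 11689 genes entered tests and ranks by reaching 10 counts in 2 or more of them. All 9 MKP genes passed, and 8 had at least 10 counts in all 4 libraries, the exception being *Dusp8*. Levels are given as CPM (counts scaled to library size with TMM factors, for comparing libraries) and as TPM (scaled to gene length as well, for comparing genes). The 9 T cell markers were all detected and took 0.126% to 0.309% of the counts. A list of 8 genes taken as NKT1 markers took 0.111% to 0.465%. This list includes *Zbtb16* (1518, 518, 2104 and 696 counts in replicates 1 to 4), so it is not specific to NKT1 cells. The paper names that gene among markers of NKT2 and NKT17 cells. Replicates 2 and 4 had the most counts on 21 epithelial markers (1.27% and 3.10%, against 0.110% in replicate 1 and 0.0247% in replicate 3) and the fewest on T cell markers. In replicate 4 a single gene, *Lyz1*, gave 84299 of the 120263 epithelial marker counts, against 3534 of 111224 in replicate 2. The higher share in replicate 4 than in replicate 2 therefore rests on this gene. Plasma cell markers (6 genes) took 0.655% and 0.839% in replicates 1 and 2 and at most 0.0387% in replicates 3 and 4, and 6 B cell markers took 0.00532% and 0.00703% in replicates 1 and 2 and at most 0.000129% in the others. *Cd8b1*, *Eomes* and *Ncr1* had at most 3 counts in each library, *Cd8a* reached 12 counts and *Foxp3* 31 counts in replicate 2. Fewer cells of a type and less RNA per cell cannot be told apart in such bulk samples.

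*Dusp1* was the most abundant MKP transcript of SI-LP NKT cells and *Dusp8* the least abundant in each of the 4 libraries. By geometric mean TPM the order ran from *Dusp1* (806) over *Dusp10* (297), *Dusp5* (283), *Dusp4* (54.6), *Dusp6* (45.9), *Dusp2* (22.4), *Dusp7* (12.5) and *Dusp16* (12.0) to *Dusp8* (1.88). Neighbours were taken to differ beyond their spread where the ratio of their TPM had the same direction in 4 of 4 libraries and its mean log2 value exceeded its SD. This held at 3 of the 8 steps, and it divided the genes into *Dusp1* alone, then *Dusp10* with *Dusp5*, then a range from *Dusp4* down to *Dusp16* without a step of this kind, and *Dusp8*. *Dusp1* exceeded *Dusp10* by 2.72-fold in TPM (log2 ratio 1.44 ± 0.81, SD, n = 4). *Dusp5* exceeded *Dusp4* by 5.18-fold in TPM (log2 ratio 2.37 ± 0.94, SD, n = 4). The step from *Dusp16* to *Dusp8* (log2 ratio 2.67 ± 2.02, SD, n = 4) rests in part on a single count of *Dusp8* in replicate 1, and the step to *Dusp8* did not exceed its spread without replicate 3 or without replicate 4. The step below *Dusp1* and that below *Dusp10* and *Dusp5* held with each replicate left out in turn, while *Dusp10* and *Dusp5* changed places without replicate 1 or 3, and steps inside the lower range appeared without replicate 2 (*Dusp7* to *Dusp16*) and without replicate 3 (*Dusp6* to *Dusp2*).

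Set against all genes carried into ranks, the MKP genes spanned most of the range of TPM. *Dusp1* lay at the mean percentile 98.6 over the 4 libraries, *Dusp5* at 94.9 and *Dusp10* at 94.6, so 3 of 9 members were in the top 10%. *Dusp4* (74.1), *Dusp6* (71.1) and *Dusp2* (51.7) lay above the median gene. *Dusp7* (41.1), *Dusp16* (41.0) and *Dusp8* (18.4) lay below it.

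**Figure D1:**
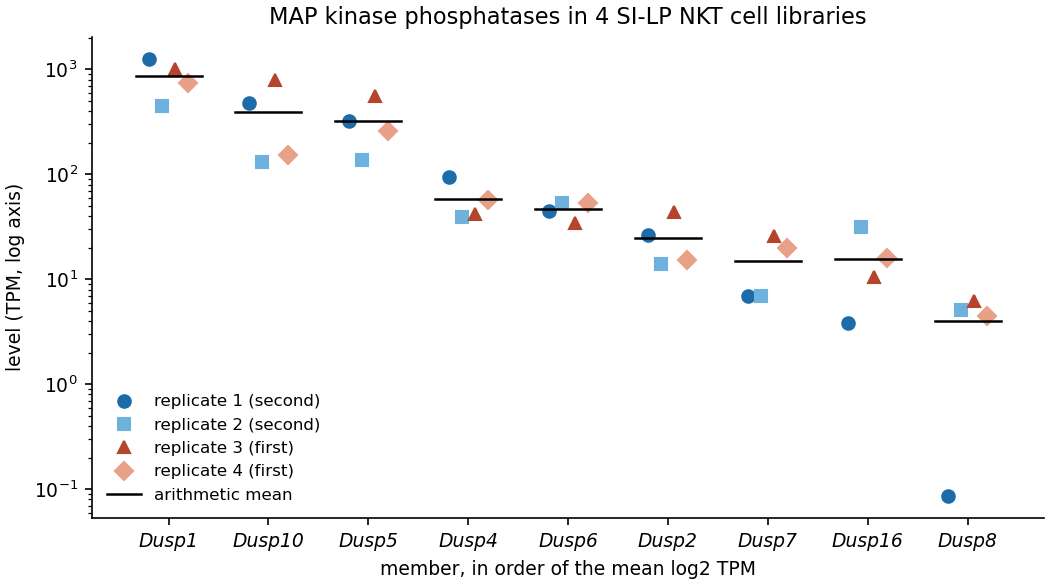
TPM (log axis) of the 9 MKP genes in each of the 4 SI-LP NKT libraries, one point per library and a line at the arithmetic mean, ordered by mean log2 TPM. *Dusp1*, *Dusp10* and *Dusp5* sit above the others, and *Dusp8* in replicate 1 falls far below every other point and rests on 1 count.

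Most of the summed MKP transcript came from 3 genes. *Dusp1* made up 56.5%, 51.6%, 40.0% and 55.9% of the summed TPM of the 9 members in replicates 1 to 4 (51.0% ± 7.67, SD, n = 4). *Dusp10* made up 21.2%, 15.3%, 31.4% and 11.7% (19.9% ± 8.59, SD, n = 4). *Dusp5* made up 14.4%, 15.7%, 22.2% and 19.7% (18% ± 3.60, SD, n = 4). Together these genes held 82.6% to 93.6% of the sum in every library. By class, the nuclear inducible phosphatases held 74.1% ± 6.51, the phosphatases directed at JNK and p38 21.6% ± 7.79 and the cytosolic ERK phosphatases 4.31% ± 2.35 of the summed TPM (SD, n = 4). The order of the 3 classes was the same in all 4 libraries. The summed TPM itself was less even, with 2243, 868, 2528 and 1316 in replicates 1 to 4, and it was lowest in replicates 2 and 4, the libraries with the lowest T cell marker shares.

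**Figure D2:**
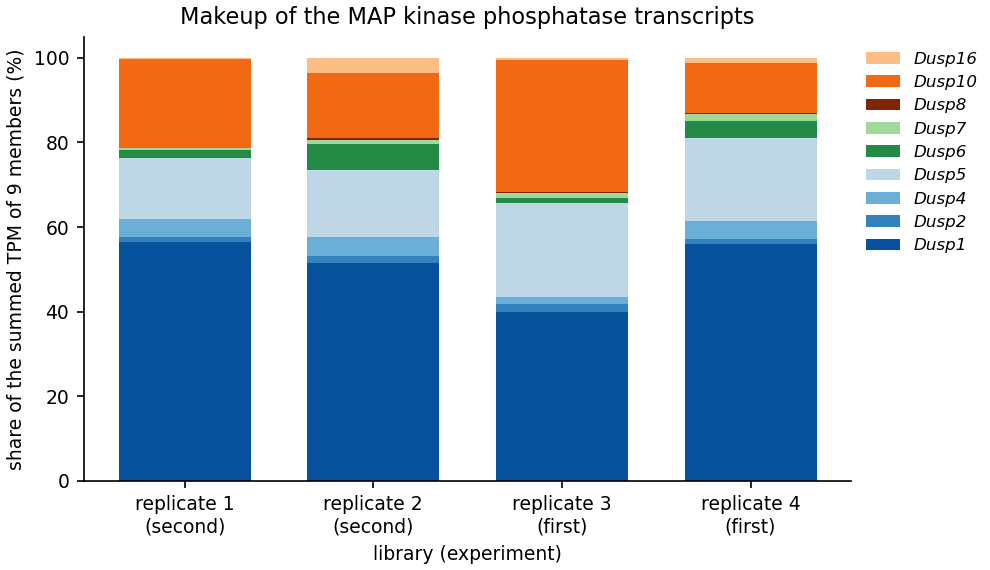
Share of each MKP gene in the summed TPM of the 9 members (percent, y axis from 0), one stacked bar per library. *Dusp1* is the largest block in each bar, and *Dusp10* is widest in replicate 3 (31.4%) and narrowest in replicate 4 (11.7%).

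Promoters of the genes at the ends of this order are shown because *Dusp1* and *Dusp8* share an element held by 1.79% of all promoter windows searched. *Dusp5* and *Dusp10* are shown as the other abundant members. A link between any element and the levels was not tested. RefSeq windows on GRCm38.p6, from 250 bases before to 50 after the annotated start, were at hand for 8 of the 9 genes (not *Dusp4*) and for 32851 windows in all. Printed 5′ to 3′ on the gene's strand are the 250 bases before the start, which lie at chr17:26508473-26508722 (minus strand, *Dusp1*), chr19:53528895-53529144 (plus strand, *Dusp5*), chr7:142095285-142095534 (minus strand, *Dusp8*) and chr1:184034131-184034380 (plus strand, *Dusp10*). RefSeq extends *Dusp8* upstream to 142095907, so its printed bases lie within that longer gene, and likewise extends *Dusp16* to 134807063. Capitals mark the motif matches described after them.
Dusp1: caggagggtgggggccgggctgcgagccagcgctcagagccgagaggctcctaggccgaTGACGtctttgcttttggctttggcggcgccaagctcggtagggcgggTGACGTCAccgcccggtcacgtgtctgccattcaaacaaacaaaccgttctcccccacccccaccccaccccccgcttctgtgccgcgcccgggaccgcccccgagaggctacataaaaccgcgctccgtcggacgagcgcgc
Dusp5: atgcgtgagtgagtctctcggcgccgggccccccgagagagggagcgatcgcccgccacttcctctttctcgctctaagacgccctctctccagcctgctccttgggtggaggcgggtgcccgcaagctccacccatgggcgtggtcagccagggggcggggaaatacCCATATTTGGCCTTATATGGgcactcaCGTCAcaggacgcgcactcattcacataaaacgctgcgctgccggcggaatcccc
Dusp8: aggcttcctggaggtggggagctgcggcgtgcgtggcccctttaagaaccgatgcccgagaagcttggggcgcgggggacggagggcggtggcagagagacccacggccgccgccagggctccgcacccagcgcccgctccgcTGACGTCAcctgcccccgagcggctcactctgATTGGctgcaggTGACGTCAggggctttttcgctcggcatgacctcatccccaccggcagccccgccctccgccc
Dusp10: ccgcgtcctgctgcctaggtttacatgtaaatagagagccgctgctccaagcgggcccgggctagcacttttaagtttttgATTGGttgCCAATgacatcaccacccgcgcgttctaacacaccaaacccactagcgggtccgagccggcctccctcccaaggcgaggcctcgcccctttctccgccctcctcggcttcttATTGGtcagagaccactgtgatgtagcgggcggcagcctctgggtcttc

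Each motif was searched on both strands of the 300-base windows, and a match is a description of letters and not a binding site. The full cAMP response element, TGACGTCA, was held by 1.79% of all windows and by those of *Dusp1* (bases -143 to -136 from the start) and *Dusp8* (bases -107 to -100 and -63 to -56). Its core, TGACG, which overlaps every full element, was held by 20.8% of windows and by 5 MKP genes (*Dusp1*, *Dusp2*, *Dusp5*, *Dusp8*, *Dusp16*). The CArG box, the element bound by serum response factor, was held by 1.63% of windows and among the MKP genes by *Dusp5*, with a pair of adjacent matches at bases -82 to -73 and -72 to -63. The EGR site GCGNGGGCG occurred in 5.55% of windows and in those of *Dusp2* and *Dusp16*. The CCAAT box, CCAAT, occurred in 37.4% of windows and in those of *Dusp6*, *Dusp7*, *Dusp8*, *Dusp10* and *Dusp16*, with 3 matches in the printed bases of *Dusp10* and 1 just after its start. The letters of the AP-1 site TGANTCA (7.81% of windows), the NF-kB site (8.46%), the ETS site CCGGAAG (8.86%) and the TATA box TATAAA (13.6%) were in none of the 8 windows. The MKP windows had a median GC content of 67.8%, against 52.7% over all windows, and a median of 28 CpG dinucleotides against 7. The motif shares over all windows thus come from windows poorer in GC and CpG. Shares over windows of like content were not counted.

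*Dusp1* (MKP-1, the founding member, which acts on p38, JNK and ERK in the nucleus) lies on the minus strand of chromosome 17 at 26505591 to 26508472 of GRCm38, with 4 exons. Its level was 1268, 448, 1011 and 736 TPM in replicates 1 to 4 (866 ± 353, SD, n = 4), from 5918, 2951, 3576 and 2301 counts. Replicate 2 was lowest and replicate 1 highest, a 2.90-fold range in CPM. Heat shock genes (9 genes, followed as a sign of cell stress, a known inducer of *Dusp1*) took 0.597%, 0.601%, 0.673% and 0.346% of counts in replicates 1 to 4, and their part in the *Dusp1* level was not tested.

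*Dusp2* (PAC-1, an inducible nuclear phosphatase first described in activated T cells) lies on the plus strand of chromosome 2 at 127336159 to 127338377. It measured 26.5, 14.0, 44.1 and 15.4 TPM in replicates 1 to 4 (25 ± 13.9, SD, n = 4), and replicates 1 and 3 were the higher ones. With 40 to 130 counts per library it was 36.0-fold below *Dusp1* in TPM by geometric mean, with single libraries between 22.9-fold and 47.9-fold.

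*Dusp4* (MKP-2, a nuclear relative of *Dusp1*) lies on the plus strand of chromosome 8 at 34807610 to 34819894. It stood at 94.99, 39.5, 41.6 and 57.1 TPM in replicates 1 to 4 (58.3 ± 25.7, SD, n = 4), highest in replicate 1, with replicates 2 and 3 close to each other. *Dusp1* exceeded it 14.8-fold in TPM, between 11.3-fold and 24.3-fold in single libraries.

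*Dusp5* (a nuclear phosphatase specific for ERK) lies on the plus strand of chromosome 19 at 53529145 to 53541809, downstream of the promoter with the adjacent CArG boxes. Its level was 322, 137, 561 and 259 TPM in replicates 1 to 4 (320 ± 178, SD, n = 4). Replicate 3 was highest and replicate 2 lowest, and the range was 5.14-fold in CPM. The ratio of *Dusp5* to *Dusp2* was the steadiest of the pairs compared within the class, at 12.2, 9.74, 12.7 and 16.9-fold in TPM in replicates 1 to 4 (log2 ratio 3.66 ± 0.33, SD, n = 4), although both levels moved several-fold between libraries.

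*Dusp6* (MKP-3, a cytosolic phosphatase specific for ERK and a widely used readout of ERK activity) lies on the plus strand of chromosome 10 at 99263231 to 99267489. In TPM and CPM it was the steadiest MKP gene, with 44.5, 53.9, 34.5 and 53.5 TPM in replicates 1 to 4 (46.6 ± 9.16, SD, n = 4). Set per T cell marker count, as described below, its highest-to-lowest ratio was 4.47 in place of 1.54 in CPM. Its SD of log2 CPM was 0.28, and 3.86% of the genes tested had a smaller one. Replicates 2 and 4 were its higher libraries, the reverse of the order in *Dusp2*, *Dusp5* and *Dusp10*. These libraries also had the most epithelial marker counts, whose part in the *Dusp6* level was not tested.

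*Dusp7* (MKP-X, the other cytosolic ERK phosphatase analysed) lies on the plus strand of chromosome 9 at 106368632 to 106375723. It measured 7.00, 6.88, 25.6 and 19.7 TPM in replicates 1 to 4 (14.8 ± 9.40, SD, n = 4). Replicates 3 and 4 were its higher libraries, in CPM as well (7.48, 7.18, 33.5 and 25.6 in replicates 1 to 4). *Dusp6* exceeded *Dusp7* in 4 of 4 libraries, by 7.84-fold in replicate 2 and by 1.35-fold in replicate 3 in TPM. The third cytosolic ERK phosphatase, *Dusp9*, is not among the 9 genes and had 0, 3, 1 and 0 counts in replicates 1 to 4.

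*Dusp10* (MKP-5, which acts on JNK and p38) lies on the plus strand of chromosome 1 at 184034381 to 184075636. Its level was 476, 132, 793 and 155 TPM in replicates 1 to 4 (389 ± 312, SD, n = 4), from 3195, 1255, 4033 and 695 counts. Replicates 1 and 3 were its higher libraries, as for *Dusp1*, *Dusp2* and *Dusp5*, and the range was 7.49-fold in CPM. The share of all genes with this order of libraries was not counted. It did not differ from *Dusp5* beyond the spread, being above it in TPM in replicates 1 and 3 and below it in replicates 2 and 4.

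*Dusp16* (MKP-7, directed at JNK and p38) lies on the minus strand of chromosome 6 at 134715468 to 134792628. It went the other way, with 3.83, 31.8, 10.6 and 16.04 TPM in replicates 1 to 4 (15.6 ± 11.9, SD, n = 4). Replicates 2 and 4 were its higher libraries, and these were also those with the most epithelial marker counts, whose part in the *Dusp16* level was not tested. The ratio of *Dusp10* to *Dusp16* in TPM was 124, 4.17, 74.6 and 9.64-fold in replicates 1 to 4, so that these phosphatases with overlapping substrates kept no common proportion. An exon of *Dusp16* overlaps 1700055D16Rik, which had 0 to 16 counts, on the opposite strand by 137 bases. Since counting was without strand, reads in these bases cannot be told apart by strand, and their effect on the *Dusp16* count was not tested.

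*Dusp8* (directed at JNK and p38, best known from brain and heart) lies on the minus strand of chromosome 7 at 142079487 to 142095284. It had 1, 84, 55 and 35 counts, or 0.139, 8.04, 12.3 and 8.78 CPM, in replicates 1 to 4. The single count in replicate 1 has an exact 95% Poisson interval of 0.0253 to 5.57 counts, or 0.00351 to 0.772 CPM, which covers counting error only. The lowest of the other libraries was 58.1-fold higher in CPM (interval 10.4 to 2293). A drop to at most 3 counts in some library was not peculiar to this gene, since it was seen for 22.7% of the genes tested, and 15.8% had besides at least 50 counts in another library.

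No MKP gene was called different between the experiments. In edgeR's quasi-likelihood test, adjusted by the Benjamini-Hochberg method over all 11689 genes, 0 of 9 members were called and 0 had an unadjusted p under 0.05, beside a background of 0% of genes called (248 genes at an unadjusted p under 0.05). DESeq2 called 41 genes, none of them an MKP gene. *Dusp7* had the largest difference, 2.01 log2 units lower in the second experiment (SE 1.10, edgeR's quasi-likelihood test, Benjamini-Hochberg adjusted p = 0.9997). *Dusp5* was 1.13 log2 units lower (SE 0.71), and *Dusp4* had a log2 difference of 0.15 (SE 0.78), both at the same adjusted p of edgeR's test. In all, 7 of 9 members had a lower estimate in the second experiment, with a median log2 difference of -0.85, against 48.6% of all genes and a median of 0.03, and with library size alone as the scale *Dusp6* (0.087 in place of -0.14) left this number while the median of all genes became 0.28. The members' median rests on single libraries, being -0.17 without replicate 3, -0.45 without replicate 2, -1.25 without replicate 1 and -1.42 without replicate 4. With 2 libraries per experiment and a biological coefficient of variation of 0.976 over all genes, SEs of 0.71 to 2.00 log2 units leave room for several-fold differences in either direction.

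Within each experiment *Dusp10* and *Dusp5* were lower in the library with fewer T cell marker counts, a comparison of 1 library with 1 in which no test can be made. In log2 CPM, *Dusp10* was lower by 2.37 in replicate 4 than in replicate 3 and by 1.88 in replicate 2 than in replicate 1. *Dusp5* was lower by 1.12 and 1.27 in the same comparisons. These 2 of 9 members were lower by over 1 log2 unit in both experiments, which was the case for 8.08% of all genes tested, and 0 of 9 members were higher by over 1 log2 unit in both, which was the case for 19% of all genes. With library size alone, which moves the median of all genes to 0.40 and 0.39, *Dusp5* stood at -0.79 and -1.01 and *Dusp10* at -2.04 and -1.62, so 1 member was left, beside 4.77% of all genes. *Dusp2* (differences of -1.5 and -0.92) and *Dusp1* (-0.47 and -1.54) were lower in both pairs, *Dusp7* (-0.38 and -0.06, or -0.06 and 0.19 with library size alone) was nearly level, and *Dusp6* (0.62 and 0.24) and *Dusp16* (0.58 and 2.96) were higher in both. *Dusp4* (0.44 and -1.29) and *Dusp8* (-0.47 and 4.23) changed sign between the pairs. The members' median difference was -0.47 in the first and -0.92 in the second experiment, against 0.08 and 0.13 over all genes.

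**Figure D3:**
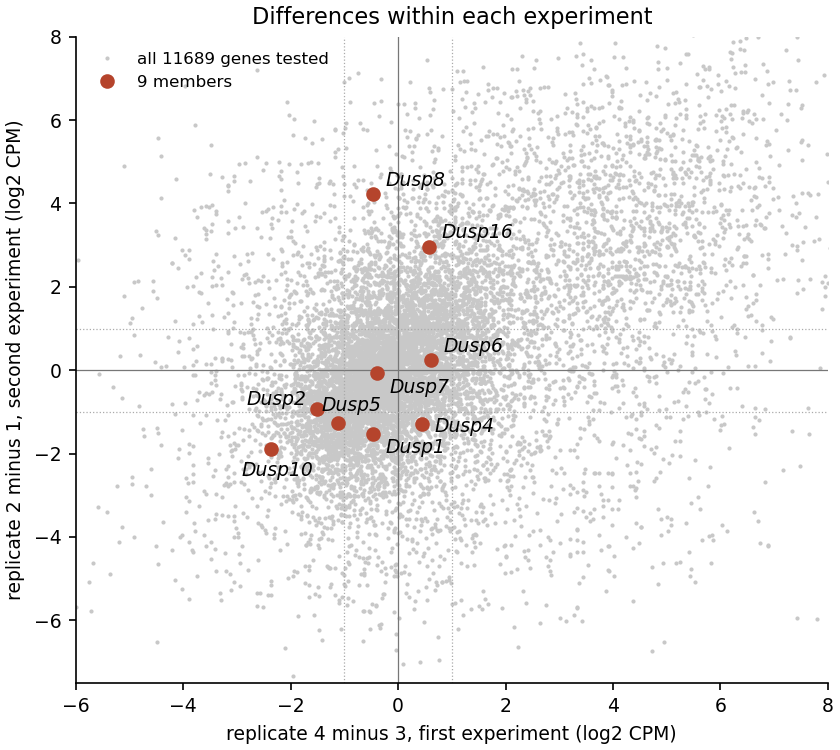
Difference in log2 CPM of replicate 4 minus replicate 3 (x axis, first experiment) against replicate 2 minus replicate 1 (y axis, second experiment) for the 11689 genes tested (grey) and the 9 MKP genes (red), with dotted lines at 1 log2 unit and 39 genes outside the axes. *Dusp10* and *Dusp5* lie beyond the line at the lower left, and *Dusp16* and *Dusp6* lie at the upper right.

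Counts on the T cell markers differed between the same libraries, being lower in replicate 4 than in replicate 3 and lower in replicate 2 than in replicate 1. MKP counts were therefore also set per 1000 counts on the 9 T cell markers. *Cd3e* alone gave 13247 of 19463, 6428 of 11027, 9340 of 16960 and 3408 of 5648 marker counts in replicates 1 to 4. The scale thus follows mostly this gene, and it was chosen after the data had been seen. On it *Dusp1* stood at 304, 268, 211 and 407 in replicates 1 to 4, and its highest-to-lowest ratio was 1.93 in place of 2.90 in CPM. *Dusp2* stood at 5.29, 6.98, 7.67 and 7.08, with a ratio of 1.45 in place of 3.94. *Dusp5* stood at 72.2, 76.3, 109 and 134, with a ratio of 1.86 in place of 5.14. The libraries of these genes thus lay closer together than in CPM. For *Dusp10*, at 164, 114, 237.8 and 123, the ratio was 2.09 in place of 7.49. The ratio was smaller per T cell marker count for these 4 of the 8 members that had 10 or more counts in every library, against 27.5% of the 8089 genes of this kind. It was larger for *Dusp4* (3.64 against 2.47), *Dusp6* (4.47 against 1.54), *Dusp7* (6.51 against 4.66) and *Dusp16* (20.7 against 8.10). On this scale *Dusp10* remained lower in replicate 4 than 3 and in replicate 2 than 1 (log2 differences of -0.95 and -0.53) while *Dusp5* turned to 0.30 and 0.08, *Dusp1* stood at 0.95 and -0.18, *Dusp2* at -0.09 and 0.43, and *Dusp6*, *Dusp7* and *Dusp16* were higher by over 1 log2 unit in both pairs. These 3 of 9 members stand beside 45.6% of all genes, whose median moved to 1.49 and 1.48.

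**Figure D4:**
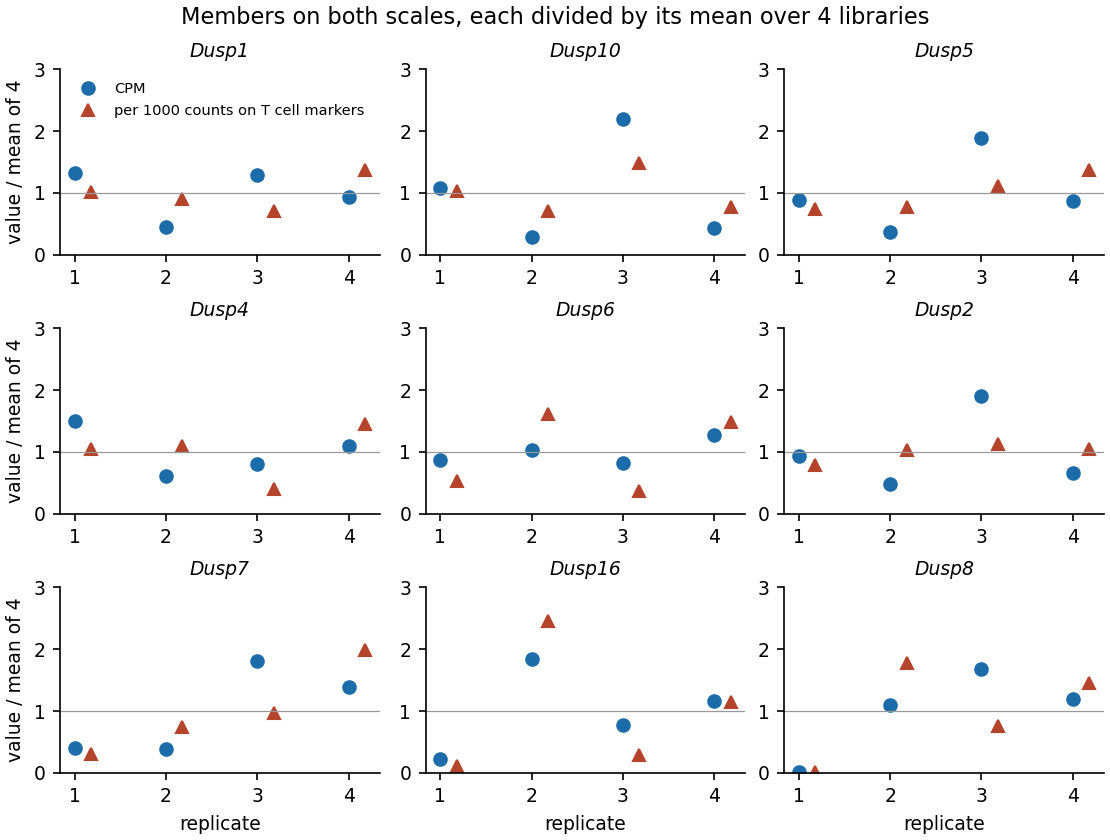
Each MKP gene's level in the 4 libraries (x axis) divided by its own mean (y axis, no unit), in CPM (circles) and per 1000 counts on 9 T cell markers. Points of *Dusp1*, *Dusp2*, *Dusp5* and *Dusp10* lie closer together on the marker scale, and those of *Dusp4*, *Dusp6*, *Dusp7* and *Dusp16* lie farther apart.

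MAP kinase transcripts were less abundant in sum than those of the MKP genes, and protein was not measured. The 10 MAP kinase genes, of which 8 passed the filter, summed to 357 ± 87.5 TPM against 1739 ± 778 TPM for the 9 MKP genes (SD, n = 4). The ratio of the sums was 6.48, 1.88, 10.2 and 3.51 in replicates 1 to 4, above 1 in each library and lowest in replicates 2 and 4. *Mapk3* (ERK1) stood at 108 ± 56.3 TPM and *Mapk14* (p38α) at 46.9 ± 21.6 TPM (SD, n = 4), and *Mapk12* had no counts. The 7 MAP kinase kinases, led by *Map2k3*, all passed the filter and summed to 266 ± 57.4 TPM.

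Transcripts of other phosphatases of the pathway were sparser than those of the leading MKP genes. Of 15 atypical dual-specificity phosphatases, 8 passed the filter and 5 had at most 3 counts in each library (*Dusp13*, *Dusp15*, *Dusp21*, *Dusp26*, *Dusp27*). Their sum was 168 ± 59.4 TPM, of which *Dusp11*, a phosphatase of RNA 5′ ends, gave 92.8 ± 27.7 (SD, n = 4). Of the tyrosine phosphatases of MAP kinases, *Ptpn7*, the lymphoid member, stood at 49.9 ± 20.9 TPM, a level near that of *Dusp6*, and *Ptpn5* had at most 3 counts in each library.

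Upstream, all 10 genes of the Ras-ERK input of the antigen receptor passed the filter, with a median TPM percentile of 78.8, led by the adaptors *Lcp2* (348 ± 205 TPM) and *Lat* (253 ± 115, also a T cell marker) and the Ras activator *Rasgrp1* (255 ± 183). The other brakes, 13 genes of the Sprouty, Spred and RasGAP families, summed to 330 ± 143 TPM, and 9 of them passed the filter, led by *Spry2* at 75.5 ± 60.2 TPM. Of 16 immediate early genes that respond to ERK, 15 passed the filter at a median percentile of 91.0, led by *Nr4a1* (870 ± 300 TPM), *Fosl2* (818 ± 448) and *Junb* (642 ± 374). Their sum was 4948, 4387, 5204 and 4383 TPM in replicates 1 to 4, a narrower range than that of the summed MKP genes. Single genes of this list moved in opposite directions, so the even sum does not mean steadier genes. *Egr1* stood at 226, 1107, 156 and 757 TPM in replicates 1 to 4, and *Fosl2* at 1105, 321, 1276 and 568. The median SD of log2 CPM in this list was not below that of the MKP genes (0.964). In each of these lists 0 genes were called between the experiments by edgeR's test after adjustment, and 1 gene, *Sos1*, had an unadjusted p under 0.05.

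**Figure D5:**
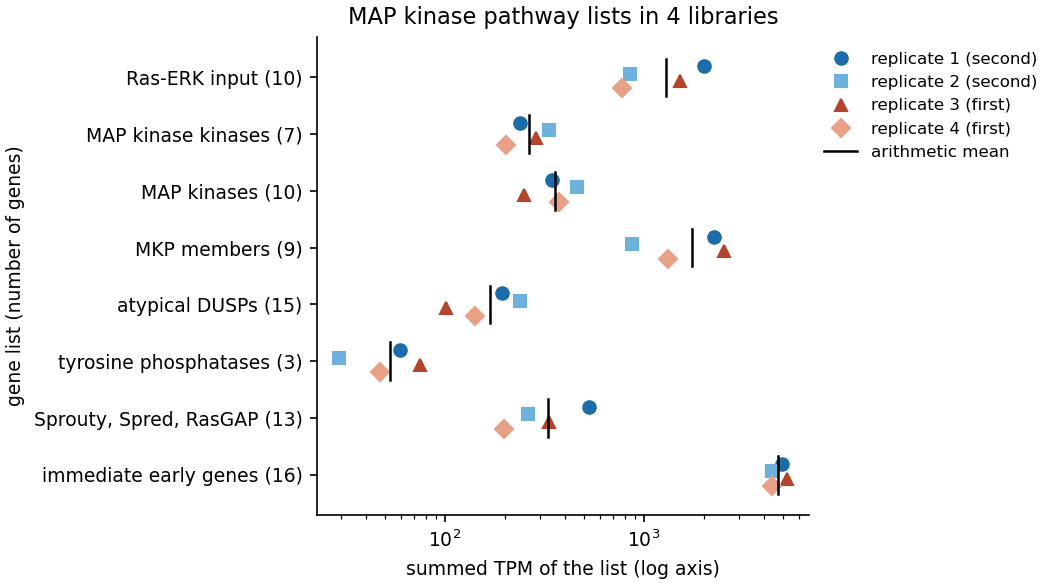
Summed TPM (log axis) of the 9 MKP genes and of 7 other gene lists of the MAP kinase pathway, one point per SI-LP NKT library and a line at the arithmetic mean. The immediate early genes lie highest at 4383 to 5204 TPM, and the MKP genes lie above the MAP kinases in every library.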

How the data were processed

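RNA-seq was analysed in 4 libraries of SI-LP NKT cells. The authors deposited raw counts per gene, made according to the methods and the table header by aligning with HISAT2 and counting read pairs on exons with featureCounts 1.6.4 without a strand option; the submitters' processing notes also name Bowtie2, RSEM and GRCm38.p6. The methods name GRCm39 and a NovaSeq and the labels a HiSeq, while 24893 of 24984 matched genes (99.6%) overlap their GRCm38.p6 position, so coordinates follow GRCm38. The table held 6 library columns, of which 2 matched no label and were not used. Other libraries of the study are not analysed here.

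Total counts were 7233071, 8732858, 5487147 and 3882803 in replicates 1 to 4, so 3 counts amount to 0.344 to 0.773 CPM. *Rn45s* took 11.4%, 7.36%, 28.1% and 21.6% of counts in replicates 1 to 4, so its higher shares were in the first experiment. CPM used TMM sizes from edgeR, TPM the deposited gene lengths, and log2 CPM a prior count of 2. Genes reaching 10 counts in 2 or more libraries entered edgeR's quasi-likelihood test of the second against the first experiment, with a Benjamini-Hochberg threshold of 0.05. With 1 group this measures replicate error and no effect. The script was tested on simulated data. All 9 members are named; of other lists, the 3 genes of highest mean TPM, genes with at most 3 counts in each library and genes called. *Sos1*, *Egr1*, *Rn45s*, *Foxp3*, *Cd8a*, *Zbtb16*, *Lyz1*, *Cd3e* and 1700055D16Rik were named after their values were seen. Members and lists were chosen with earlier results of these data known. Alternatives were DESeq2, other scalings, filters and prior counts, CPM for TPM, and leaving out each replicate. Models ran in edgeR 4.0.16 with limma 3.58.1 and in DESeq2 1.42.0 under R 4.3.3. Descriptions and plots came from pandas 2.3.3, numpy 2.4.6 and matplotlib 3.10.9 under Python 3.11.15.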

Additional observations from a re-analysis of the deposited data

Results flagged for a closer look

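Levels and marker shares were examined for a library far from the other 3 by Dixon's ratio, the gap of the extreme library over the whole range. Its critical value was exceeded by 2 of 51 values, where chance gives 2.55, and by no MKP gene, the highest MKP ratio being 0.68. The share of counts on markers of other T and NK cells (*Cd8a*, *Cd8b1*, *Foxp3*, *Eomes*, *Ncr1*) had a ratio of 0.938, with 44 counts in replicate 2 and 1 to 4 in the others. The TPM of *Dusp18*, an atypical dual-specificity phosphatase, had a ratio of 0.899, with 1174 counts in replicate 2 and 25, 0 and 56 in replicates 1, 3 and 4.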

How the results depend on the processing

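No paired analysis was possible because the 4 libraries form 1 group. All genes called between experiments numbered 60 with no filter on low counts, 41 with DESeq2 and 0 to 7 with a replicate left out (7 without replicate 3, 6 without replicate 4), where the lone library of an experiment is assumed to vary like the others. No MKP gene was called in any of 80 alternative differences, of which 10 took the other sign; 1, *Dusp8* without replicate 2, had an unadjusted p under 0.05. With library size alone the *Dusp6* difference became 0.087. With a replicate left out, log2 differences ran from -1.25 to 0.25 (*Dusp1*), -1.42 to 0.094 (*Dusp2*), -0.61 to 0.64 (*Dusp4*), -1.87 to -0.48 (*Dusp5*), -0.43 to 0.22 (*Dusp6*), -2.18 to -1.81 (*Dusp7*), -6.03 (without replicate 2) to -0.35 (*Dusp8*), -2.12 to 0.68 (*Dusp10*) and -2.10 to 0.96 (*Dusp16*). With CPM in place of TPM, 1 step of the order (*Dusp5* to *Dusp4*) exceeded its spread in place of 3, and the nuclear inducible share was 65.3%, since CPM does not divide by length. Ranked among genes that reach 10 counts in every library, the members' median percentile was 62.7. Members lower in both experiments numbered 1 with library size alone (4.77% of all genes) and 0 scaled to T cell markers (0.967%), where 3 were higher (45.6%). On the latter scale the members' median difference was 0.69 and that of *Dusp5* 0.19, each averaged over both experiments, against medians of 1.49 and 1.48 over all genes. Of 27 levels under other scalings, 26 stayed within 1 SD (*Dusp6* moved to 58.4 CPM with library size without *Rn45s*). All 36 with a replicate left out did so too, but the mean of the remaining libraries cannot leave that range, so this tests nothing. Levels under 3 counts, as of *Dusp8* in replicate 1, could not be resolved, although that library was deeper than replicates 3 and 4.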
